A study of Homo sapiens with 18 samples.

Results

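The comparison described here is that of the first biological repeat of a HepG2 experiment with its later repeats. Its members are the 6 arrays titled as replicate 1, of 18 arrays in all, and they were set against the 12 arrays titled as replicate 2 or 3. Each repeat holds 1 array of each of 6 groups, so the 3 repeats have the same make-up. The groups are the TRα1 pool, the TRβ1 pool and the empty plasmid pool, each exposed to 100 nM triiodothyronine (T3, the active thyroid hormone) or to ethanol as vehicle. Exposure lasted 6 h, and the serum of the medium had been stripped of hormone. HepG2 is an established human liver tumour cell line. The TRα1 pool combined 6 stable clones that carry an added thyroid hormone receptor α1, the TRβ1 pool 12 clones with added receptor β1, and the empty plasmid pool 11 clones with the plasmid alone, all obtained by co-selection with G418. There was 1 pool per construct, and all pools keep the receptors of HepG2 itself.

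The labels call the arrays replicates 1 to 3 and do not say what set the repeats apart (a culture, a passage, a day, a reagent lot or a labelling round). The 6 arrays of a repeat share that repeat, so the independent repeats are 1 against 2, and p-values over arrays measure the spread between arrays. Every repeat holds both vehicle and T3 arrays of each pool, so the design does not confine a difference between repeats to a single treatment. In a bulk extract, fewer cells that express a gene and less of its RNA per cell cannot be told apart.

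As background, repeats of a cultured line can differ in density, nutrient state, stress and RNA handling, and several gene groups are known to follow these. Ribosomal proteins, respiratory chain subunits, proteasome subunits and spliceosomal Sm proteins are housekeeping products made in nearly all cells. Hepatocyte lines also adjust lipid synthesis genes to nutrients, metallothioneins to zinc and other metals, and adhesion and YAP/TEAD target genes to contact and tension.

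Values are the deposited log2 expression values, and a feature is a set of probes for 1 locus. Of 32321 features, 20546 carry a gene symbol and were tested. A feature was called where the Benjamini-Hochberg adjusted p of a limma fit with the 6 groups as terms was under 0.05. Where 3 log2 values are given for a set of arrays, they are the lowest, the median and the highest, and differences are repeat 1 minus the later repeats with a standard error (SE).

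Repeat 1 stood apart from both later repeats across a large share of the transcriptome, and the large differences went nearly all one way. The fit called 10295 features (50.1% of those tested), of which 3233 (15.7%) were higher and 7062 (34.4%) lower in repeat 1. At a difference of at least 1 log2 unit, 481 features (2.34%) were higher and 5 (0.0243%) lower. Differences ran between -1.20 and 4.27 log2 units, with a median of -0.107 over all features tested. For 1753 features (8.53%) every array of repeat 1 lay above every later array, and for 1935 (9.42%) every one lay below.

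Each later repeat was also set against the same 6 arrays of repeat 1. Repeat 1 differed from repeat 2 at 10010 features (48.7%) and from repeat 3 at 9778 (47.6%). Repeat 3 differed from repeat 2 at 2223 features (10.8%), with 2 of them (0.00973%) higher and 3 (0.0146%) lower by 1 log2 unit or more. Of the sum of squares over all tested features, 48.7% lay between repeat 1 and the later repeats, 7.03% between repeats 2 and 3, 20.36% between the 6 groups and 23.9% in the remainder. With 1 value per repeat, 1 repeat against 2, limma called 3084 features, 1743 higher and 1341 lower. The spread in that fit comes from repeats 2 and 3 alone, so it holds no measure of how far another first repeat would vary. Genes named here that lost their call in it were RPL4, PSMD1, PSMD11, MTTP, C3, FGG, MT1X, MT1H, MTF1, SLC39A10, TOP2A, CENPF, SREBF1, PIK3R3, ONECUT2, GATA4, PKLR, NQO1 and THRB.

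**Figure D1:**
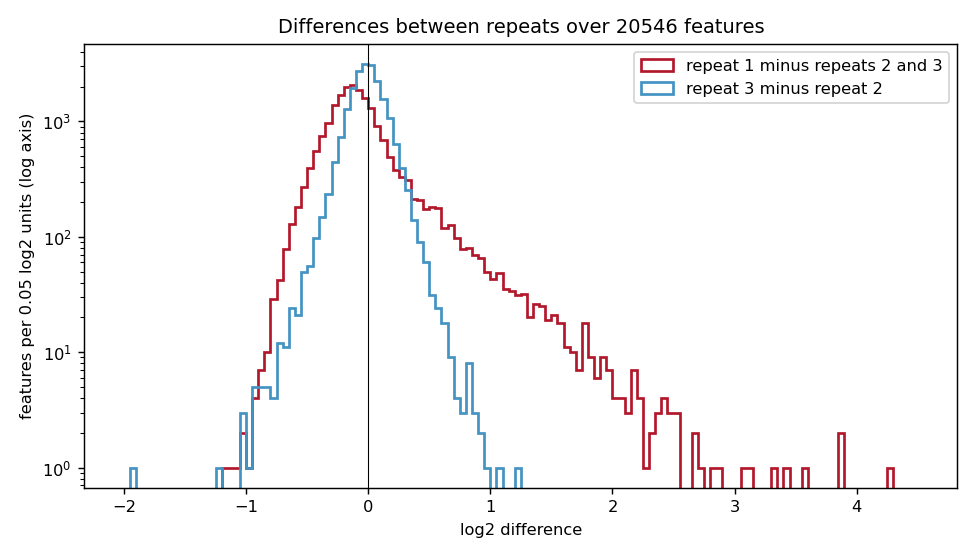
Number of features (log axis) by log2 difference, for repeat 1 minus repeats 2 and 3 (red) and for repeat 3 minus repeat 2 (blue), over 20546 features. The red curve has its median at -0.107 and a long tail of higher values that reaches 4.27, while the blue curve is narrow.

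The scale of the arrays moved with the repeat. Median log2 values over all features were 5.31 to 5.37 on the 6 arrays of repeat 1, against 5.41 to 5.49 on the 12 later arrays. When each array was centred on its median, 4769 features were called higher and 3063 lower in repeat 1, and quantile normalization gave 3620 higher and 4798 lower. Counts in the lower direction are therefore read relative to the general shift of -0.107. Centring ended the calls of 8 genes named here, all lower in repeat 1: RPL4, PSMD11, MTF1, SLC39A10, CENPF, SREBF1, PKLR and THRB.

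The cells kept their liver identity in all repeats. Albumin (ALB), the main plasma protein, read 12.67, 12.82 and 12.85 on repeat 1 arrays, against 12.52, 12.76 and 12.88 on later arrays, and α-fetoprotein (AFP) read 12.30, 12.59 and 12.61 against 12.25, 12.56 and 12.70. Both sets overlapped, and the differences of 0.07 ± 0.04 (SE; adjusted p = 0.172) and 0.01 ± 0.05 (adjusted p = 0.919) were not called. Over 17 hepatocyte markers, 5 were higher and 3 lower, and their mean level was 11.43 to 11.56 on repeat 1 arrays and 11.34 to 11.46 on later arrays. The means of fibroblast, endothelial, leukocyte and neuronal markers were low in every repeat. They were 4.69 to 4.82 in repeat 1 and 4.81 to 4.99 later for 10 fibroblast and stellate cell genes (0 higher, 4 lower), and 4.47 to 4.68 in repeat 1 and 4.65 to 4.86 later for 8 endothelial genes (0 higher, 4 lower). For 8 leukocyte genes they were 5.48 to 5.74 in repeat 1 and 5.56 to 5.76 later (0 higher, 2 lower). For 7 neuronal genes they were 4.41 to 4.62 in repeat 1 and 4.53 to 4.72 later (0 higher, 1 lower). The means of 8 cholangiocyte genes were not low, at 7.28 to 7.45 in repeat 1 and 7.12 to 7.35 later (2 higher, 2 lower). Of the receptor genes, whose level sums native and added copies where probes read both, the difference was -0.08 ± 0.08 for THRA (adjusted p = 0.443), the gene of TRα, and -0.21 ± 0.07 for THRB (adjusted p = 0.0201), the gene of TRβ.

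The largest rises included genes of the respiratory chain, the mitochondrial ribosome and RNA handling, together with CYP1A1. NDUFB6, a subunit of respiratory complex I, read 8.42, 8.57 and 8.78 on repeat 1 arrays, against 4.75, 5.15 and 5.65 on later arrays. All 6 repeat 1 arrays lay more than 2 log2 units above the highest later array, and the difference was 3.42 ± 0.11 (SE; 10.7-fold, adjusted p = 7.86e-13). PWAR6, a non-coding RNA of the Prader-Willi region, differed by 3.35 ± 0.16, and MRPL13, a protein of the large mitochondrial ribosomal subunit, by 2.88 ± 0.07. ALG5, which loads glucose onto dolichol for N-glycan assembly, rose by 2.71 ± 0.05. The 15 genes chosen by size further held complex I subunits NDUFA1 and NDUFS4, the complex IV subunit COX7A2, the mitochondrial ribosomal protein CHCHD1 and the ribosomal protein RPL27. They also held the spliceosome component CWC15, the kinetochore protein CENPW, the translation factor MCTS1, the ciliary transport protein IFT25 and the membrane protein STEAP1. Differences of these 10 genes lay between 2.36 and 2.66. None showed overlap of arrays, which was a condition for choosing all 15. NDUFS4 has a second, dimmer feature at which the difference was -0.07, so its rise belongs to 1 of its 2 features.

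CYP1A1, a cytochrome P450 known for its induction through the aryl hydrocarbon receptor (AHR), was the one drug-metabolizing enzyme among them. It read 9.19, 9.55 and 9.94 on repeat 1 arrays, against 5.36, 6.27 and 7.59 on later arrays, a difference of 3.13 ± 0.15 (8.77-fold, adjusted p = 5.23e-11). By pool the shift was 2.98 (TRα1), 3.18 (TRβ1) and 3.24 (empty plasmid). Of 6 AHR target genes listed after the values were seen, NQO1, a quinone reductase, also rose, by 0.28 ± 0.04 (adjusted p = 0.112 with 1 value per repeat). The other 4 were not called, among them CYP1A2 at -0.15 ± 0.10, CYP1B1 at -0.09 ± 0.06 and TIPARP at 0.05 ± 0.05.

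Falls were many and small. SNORD59B, a small nucleolar RNA, read 4.65, 4.91 and 4.99 on repeat 1 arrays, against 5.74, 6.03 and 6.31 on later arrays, a difference of -1.20 ± 0.09 (adjusted p = 2.23e-08). TUG1, a long non-coding RNA, differed by -0.91 ± 0.11, and ARRDC3, an arrestin-domain protein, by -0.88 ± 0.07. The other genes chosen by size, which fell by 0.79 to 0.85 log2 units, included SESN3 (a sestrin), ADGRG6 (an adhesion receptor), KDM4A (a histone demethylase) and DOCK4 (an activator of Rac). DST (a cytoskeletal linker), IQGAP3 (a scaffold of the cell cortex), LZTR1 (an adaptor of a ubiquitin ligase), WDR6, BROX, TMT1A and MPLKIP were among them too. KDM5D, a Y-linked gene, completed the 15 and its levels are not given. MPLKIP disagreed with itself, since its 3 features differed by -0.81, -0.89 and 0.98.

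**Figure D2:**
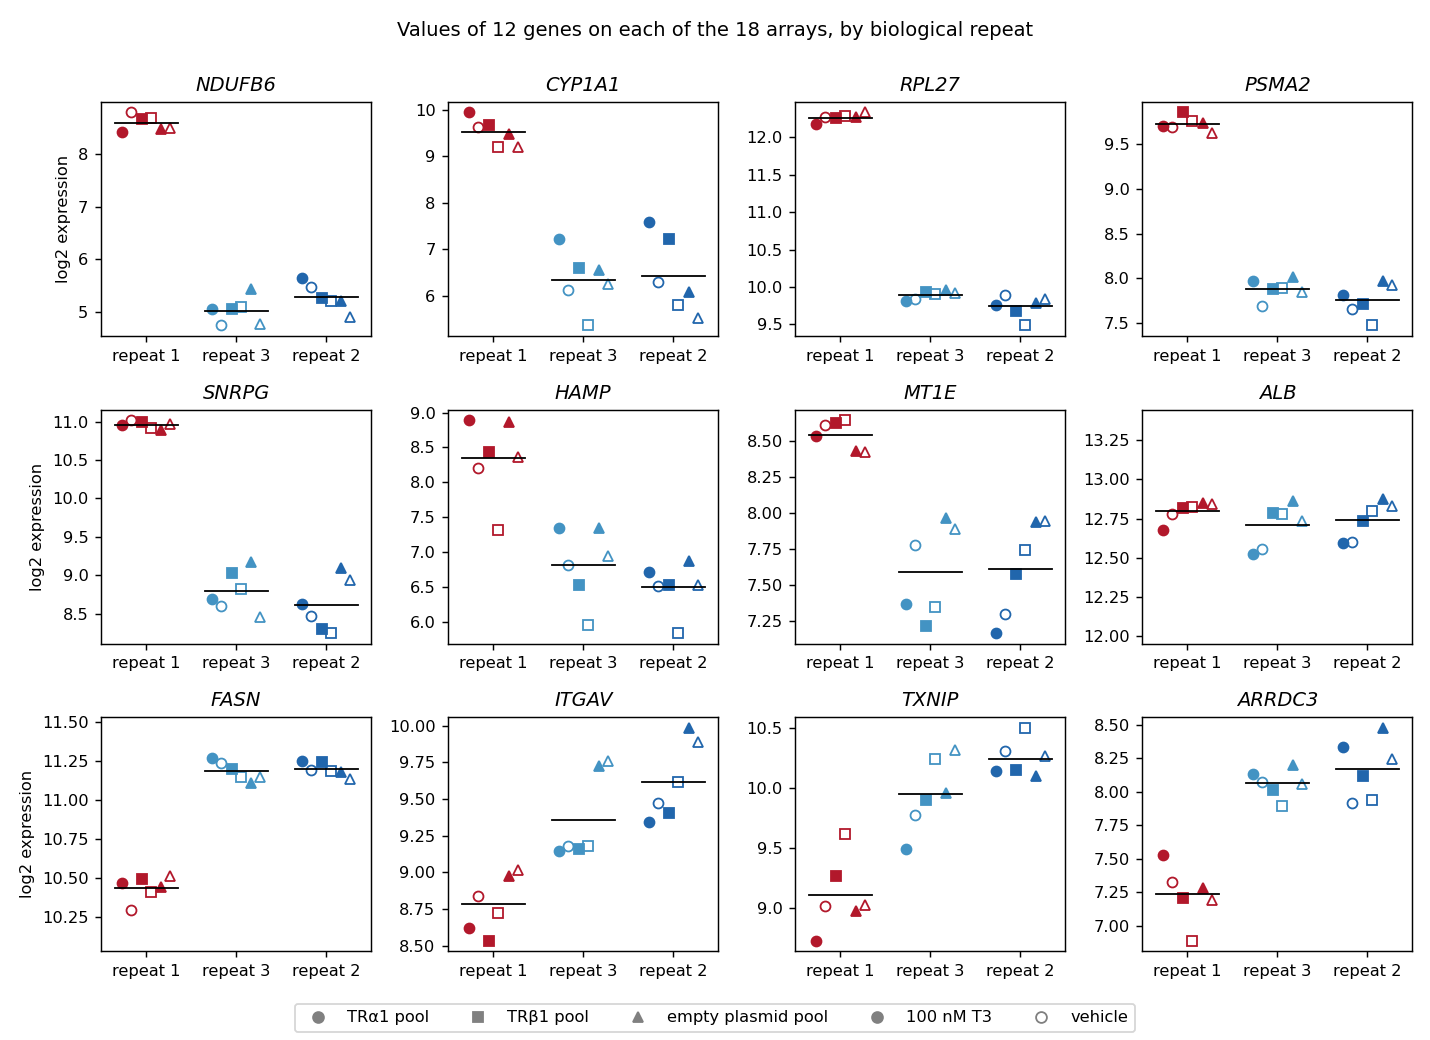
Log2 expression of 12 genes on each of the 18 arrays, in columns for repeat 1, repeat 3 and repeat 2, with filled symbols for T3, open symbols for vehicle, 1 symbol shape per pool and a line at the mean of each repeat. NDUFB6, CYP1A1, RPL27, PSMA2, SNRPG and MT1E are higher on every repeat 1 array, HAMP is higher with overlap of the extremes, FASN, ITGAV and ARRDC3 are lower on every repeat 1 array, and TXNIP is lower with overlap. ALB shows no separation.

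Cytoplasmic ribosomal protein genes rose as a group. Of 26 measured, 23 were higher and 1 lower, with a median of 0.46 against -0.107 over all features. RPL27, of the large subunit, read 12.18, 12.27 and 12.33 on repeat 1 arrays, against 9.49, 9.84 and 9.96 on later arrays, a difference of 2.44 ± 0.06 (adjusted p = 4.79e-14). RPS14, of the small subunit, read 12.04, 12.12 and 12.20 against 10.10, 10.55 and 10.74, a difference of 1.67 ± 0.09 (adjusted p = 3.21e-10). The size of the rise varied widely within the group. RPL22, RPL10A and RPL34 differed by 1.36 ± 0.11, 1.02 ± 0.08 and 1.01 ± 0.05. RPL8 was not called, at 0.14 ± 0.06. RPL5 gave -0.06 ± 0.06 at its brightest feature, which was not called, and 0.23 at the next, which was (adjusted p = 0.0089). RPL4 was the one that fell, by 0.13 ± 0.04. Ribosomal protein genes have many near-identical processed copies, so their levels are uncertain where probes cannot tell a gene from its copies.

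Mitochondrial genes of nuclear origin rose too. Of 26 respiratory chain genes, 21 were higher and 1 lower, with a median of 0.39. In complex I, NDUFA1 read 11.05, 11.12 and 11.20 on repeat 1 arrays, against 8.18, 8.45 and 8.74 on later arrays, a difference of 2.66 ± 0.08 (adjusted p = 2.51e-13), and NDUFB3 and NDUFA2 differed by 1.78 ± 0.10 and 1.76 ± 0.06. Within complex IV, which passes electrons to oxygen, COX7A2 differed by 2.52 ± 0.08, COX6C by 1.97 ± 0.06 and COX7C by 1.80 ± 0.08. Respiratory chain subunits that did not pass the test included NDUFS1, the largest core subunit of complex I, at 0.02, and SDHA, the flavoprotein of complex II, at -0.01. The 1 gene that fell was ATP5F1B, the catalytic β subunit of ATP synthase, at -0.16. Of 23 mitochondrial ribosomal protein genes, 19 were higher and 1, MRPL9, was lower, with a median of 0.44. Beside MRPL13, MRPL22 differed by 1.66 ± 0.07 and MRPL15 by 1.39 ± 0.07.

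The promoters of RPS14 and NDUFA1 are shown because genes of both groups are known for ETS-family sites near their starts. Each line gives the 250 bases before the annotated start (RefSeq, GRCh38.p14) in the direction of the gene, with matches to the ETS core CCGGAAG on either strand in capitals. RPS14 lies at chr5:150449740-150449989 on the minus strand and NDUFA1 at chrX:119871582-119871831 on the plus strand.
RPS14: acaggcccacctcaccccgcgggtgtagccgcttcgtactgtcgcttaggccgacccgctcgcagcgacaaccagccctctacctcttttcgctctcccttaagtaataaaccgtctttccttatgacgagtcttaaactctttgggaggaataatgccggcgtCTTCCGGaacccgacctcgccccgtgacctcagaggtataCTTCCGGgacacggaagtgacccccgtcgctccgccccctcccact
NDUFA1: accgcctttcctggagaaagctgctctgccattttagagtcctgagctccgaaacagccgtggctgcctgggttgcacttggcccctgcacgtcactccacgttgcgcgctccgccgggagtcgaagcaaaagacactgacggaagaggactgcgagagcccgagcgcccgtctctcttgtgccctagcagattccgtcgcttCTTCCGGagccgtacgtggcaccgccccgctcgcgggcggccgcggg
The RPS14 window holds 2 matches and the NDUFA1 window 1, none of them overlapping another. The core was found in 81 of 342 promoters (23.7%) of genes at least 1 log2 unit higher in repeat 1 and in 21.6% of 2334 promoters of all genes called higher. It was found in 11.7% of 5087 promoters of genes called lower, in 9.16% of 6809 of genes not called and in 8.82% of all 27305 promoters of the table. Most promoters of the lists that hold RPS14 and NDUFA1 lack the core. It was in 4 of 19 for cytoplasmic ribosomal proteins (21.1%) and 5 of 19 for the respiratory chain (26.3%). Promoters were found for 14230 of 18404 genes. These shares are descriptions, and a match is not evidence of binding.

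The proteasome, which degrades ubiquitin-tagged proteins, rose in most of its subunits. Of 28 genes, 21 were higher and 2 lower, with a median of 0.52. PSMA2, an α subunit of the core, read 9.62, 9.72 and 9.86 on repeat 1 arrays, against 7.48, 7.86 and 8.02 on later arrays, a difference of 1.91 ± 0.07 (adjusted p = 1.98e-12). PSMA3, PSMA5 and PSMA7 differed by 1.49 ± 0.08, 1.19 ± 0.06 and 1.12 ± 0.06. The ATPase subunit PSMC6 rose by 1.55 ± 0.05, and by 2.80 at its second feature. The 2 genes that fell, PSMD1 (-0.37 ± 0.05) and PSMD11 (-0.15 ± 0.05), encode subunits of the regulatory particle.

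Splicing genes moved in both directions. Of 15 Sm and LSm proteins, the small ring proteins of spliceosomal RNAs, 13 were higher and 0 lower, with a median of 1.14; this list was drawn up after the values were seen. SNRPG read 10.89, 10.96 and 11.02 on repeat 1 arrays, against 8.25, 8.66 and 9.18 on later arrays, a difference of 2.25 ± 0.12 (adjusted p = 1.49e-10). A second, dimmer SNRPG feature differed by 0.03 and was not called. LSM6 differed by 2.18 ± 0.07 and SNRPF by 2.15 ± 0.09. Of 33 splicing factors, 11 were higher and 16 lower, with a median of -0.12 that came to 0.00 when arrays were centred (11 higher, 7 lower). HNRNPA1, an RNA-binding repressor of exon use, rose by 1.94 ± 0.12 and SRSF7 by 0.97 ± 0.06. SF3B3, a large scaffold of the U2 particle, fell by 0.61 ± 0.08. MALAT1, a nuclear-speckle RNA, fell by 0.71 ± 0.05 at its brighter feature, while its dimmer one gave 0.28 and was not called. POLR2A, the largest subunit of RNA polymerase II, fell by 0.73 ± 0.12.

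Several secreted liver proteins were higher. Of 26 acute phase and complement genes, 12 were higher and 3 lower, with a median of 0.18, and 6 rose by at least 1 log2 unit. HAMP, the iron hormone hepcidin, read 7.31, 8.40 and 8.89 on repeat 1 arrays, against 5.85, 6.63 and 7.35 on later arrays, a difference of 1.68 ± 0.10 (adjusted p = 9.64e-10), with a slight overlap of the extremes. HP, the haemoglobin binder haptoglobin, differed by 1.67 ± 0.20, C4BPB, a complement inhibitor, by 1.42 ± 0.08, and SERPINA3, a protease inhibitor, by 1.11 ± 0.08. ORM1 and ORM2, near-identical genes of orosomucoid, differed by 1.19 ± 0.14 and 1.26 ± 0.12. Complement C3 and the serum amyloid SAA2, both acute phase proteins, went the other way, at -0.36 ± 0.05 and -0.56 ± 0.13 (-0.23 at the dimmer feature of SAA2, not called). HP and the ORM genes also differed between the later repeats, by 0.77 and 0.47 (repeat 3 minus repeat 2), and were higher in repeat 3.

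Of 23 coagulation genes, 10 were higher and 2 lower, with a median of 0.12. Antithrombin (SERPINC1) and prothrombin (F2) rose by 0.75 ± 0.12 and 0.58 ± 0.06, and the fibrinogen chain FGG by 0.41 ± 0.07. Plasminogen (PLG) rose by 0.57 ± 0.14, with shifts of 0.74 (TRα1 pool), 1.07 (TRβ1 pool) and -0.09 (empty plasmid pool).

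Most apolipoprotein genes were higher. Of 16 genes, 10 were higher (62.5%) and 5 lower (31.2%), with a median of 0.27. Over all features 15.7% were higher and 34.4% lower, so the share of lower calls was near that of all features. With centred arrays 11 were higher and 2 lower. APOA5, a regulator of triglyceride clearance, read 7.63, 8.26 and 9.08 on repeat 1 arrays, against 6.28, 6.95 and 7.65 on later arrays, a difference of 1.40 ± 0.08 (adjusted p = 4.24e-10). APOF, APOC1 and APOM, smaller proteins of circulating lipoproteins, differed by 1.20 ± 0.10, 0.94 ± 0.10 and 0.90 ± 0.06. APOA1, the main protein of high-density lipoprotein, differed by 0.63 ± 0.09 at its brighter feature and by -0.77 at a dimmer one. APOB, the very large protein of low-density lipoprotein, read 11.83, 11.99 and 12.06 on repeat 1 arrays, against 12.32, 12.57 and 12.67 on later arrays, a difference of -0.55 ± 0.06 (adjusted p = 1.6e-06). MTTP, which lipidates APOB, fell by 0.37 ± 0.08.

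In the list of 16 metallothionein and zinc genes, 9 were called higher in repeat 1 by the fit over arrays. With 1 value per repeat, 5 were called higher, namely MT1E, MT1M, MT1F, MT1G and MT2A. The rest of the 9 lost their call, among them MT1X (adjusted p = 0.0936) and MT1H (adjusted p = 0.0537). Metallothioneins are small cysteine-rich proteins that bind zinc and copper, and their genes are switched on by the zinc-sensing factor MTF1 through metal response elements. MT1E read 8.42, 8.57 and 8.65 on repeat 1 arrays, against 7.17, 7.66 and 7.97 on later arrays, a difference of 0.94 ± 0.11 (adjusted p = 3.34e-06). MT1M, MT1F and MT1G differed by 0.93 ± 0.16, 0.80 ± 0.12 and 0.76 ± 0.15. MT2A rose by 0.62 ± 0.11 (0.41 at its second feature), MT1X by 0.57 ± 0.18 and MT1H by 0.40 ± 0.11. The MT1 genes are near-identical copies, so the values of single members are uncertain.

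The size of the shift is given by pool for these genes. For MT1E the TRα1 pool shifted by 1.17, the TRβ1 pool by 1.17 and the empty plasmid pool by 0.49. For MT1G the shifts were 0.81, 1.33 and 0.15, and for MT2A 0.74, 0.93 and 0.17, in the same order of pools. MT1X and MT1H gave -0.06 and -0.04 in the empty plasmid pool. The test of a difference in shift between pools called no feature, so none of these differences between pools passed it. In the same list MTF1 itself fell by 0.26 ± 0.07, as did the zinc importers SLC39A14 (by 0.50 ± 0.05) and SLC39A10 (by 0.40 ± 0.12). Over the whole list of 16 metallothionein and zinc genes, 9 were higher and 5 lower.

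The promoters of MT2A, MT1X and MT1H are shown because metal response elements lie close to metallothionein starts. All 3 genes were called higher over arrays, but MT1X and MT1H were not with 1 value per repeat. Each line gives the 250 bases before the start on the plus strand (RefSeq, GRCh38.p14), with matches to the element's core, TGCGCNC or TGCACNC on either strand, in capitals. They lie at chr16:56608334-56608583 for MT2A, chr16:56682220-56682469 for MT1X and chr16:56669564-56669813 for MT1H.
MT2A: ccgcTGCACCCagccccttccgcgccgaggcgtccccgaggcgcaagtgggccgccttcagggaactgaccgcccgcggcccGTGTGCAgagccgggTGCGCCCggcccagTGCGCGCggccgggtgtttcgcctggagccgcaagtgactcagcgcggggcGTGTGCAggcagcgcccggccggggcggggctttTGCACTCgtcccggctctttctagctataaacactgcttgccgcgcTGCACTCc
MT1X: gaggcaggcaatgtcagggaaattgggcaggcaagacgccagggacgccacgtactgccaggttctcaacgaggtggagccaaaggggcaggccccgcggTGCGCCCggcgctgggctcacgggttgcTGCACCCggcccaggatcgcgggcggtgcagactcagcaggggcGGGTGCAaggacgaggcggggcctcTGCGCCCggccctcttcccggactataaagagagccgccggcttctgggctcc
MT1H: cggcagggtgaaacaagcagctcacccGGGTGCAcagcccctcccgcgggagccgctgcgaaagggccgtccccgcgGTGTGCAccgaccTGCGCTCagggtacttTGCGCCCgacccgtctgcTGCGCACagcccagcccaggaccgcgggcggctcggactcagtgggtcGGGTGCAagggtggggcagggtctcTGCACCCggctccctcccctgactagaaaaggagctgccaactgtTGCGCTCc
There are 7 matches for MT2A, 4 for MT1X and 8 for MT1H, none overlapping. All 5 metallothionein promoters in the table hold at least 1 match, against 24.7% of all promoters. Among promoters of called genes the shares were 32.6% for genes that rose and 32.2% for genes that fell. The core thus does not separate all genes called higher from those called lower. It was in 38.6% of 342 promoters of genes at least 1 log2 unit higher in repeat 1 and in 26.9% of 6809 of genes not called. These shares are descriptions.

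Stress-related lists moved in part. For comparison, 15.7% of all features were higher and 34.4% lower. Of 27 oxidative stress and NRF2 target genes, 13 were higher and 6 lower, with a median of 0.13. AKR1B10, an aldo-keto reductase, rose by 1.96 ± 0.12, thioredoxin (TXN) by 0.92 ± 0.08 and the pentose phosphate enzyme TALDO1 by 0.78 ± 0.05, while the export pump ABCC2 fell by 0.68 ± 0.05. Of 37 ATF4 and amino acid response genes, 11 were higher (29.7%) and 10 lower (27%), or 14 and 6 with centred arrays. The highest was DDIT4, an inhibitor of mTORC1 signalling, which read 8.67, 8.82 and 9.09 on repeat 1 arrays, against 7.05, 7.33 and 7.54 on later arrays, a difference of 1.55 ± 0.09 (adjusted p = 6.82e-10). DDIT3, the stress factor CHOP, rose by 0.91 ± 0.11. Of 26 genes of the unfolded protein response, 7 were higher and 13 lower, and with centred arrays 7 and 8. The small chaperone cofactor SDF2L1 rose by 1.61 ± 0.07, and the large chaperone HYOU1 fell by 0.55 ± 0.06.

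Single genes of other lists changed strongly as well. The BMP-responsive inhibitors of differentiation ID1, ID3 and ID2 rose by 1.52 ± 0.07, 1.30 ± 0.11 and 0.90 ± 0.08, all 3 without overlap of arrays. Of 28 TGF-β and BMP target genes, which also hold HAMP, 6 were higher and 8 lower (7 and 3 with centred arrays). These shares, 21.4% and 28.6%, stand against 15.7% and 34.4% of all features. Of 32 interferon genes, 13 were higher and 5 lower, led by B2M, the light chain of MHC class I (1.68 ± 0.07), and BST2 (1.11 ± 0.11). CCL20, a chemokine, read 10.16, 10.63 and 10.83 on repeat 1 arrays, against 8.51, 9.08 and 9.49 on later arrays, and rose, while NFKB1, a subunit of NF-κB, fell by 0.64 ± 0.10. Their list of 31 inflammatory and NF-κB targets had 5 higher and 12 lower, a share of lower calls near that of all features (6 and 6 with centred arrays). UGT2B7, a glucuronosyltransferase, rose by 1.37 ± 0.13. Of 20 urea cycle and amino acid catabolism genes, 8 were higher (40%) and 7 lower (35%), or 11 and 4 with centred arrays. Among them OTC rose by 0.78 ± 0.13 and CPS1 fell by 0.76 ± 0.14. OTC did not pass the filter on low values, and its difference ran from 0.26 to 1.57 over the 6 groups.

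Most lipid synthesis genes were lower. Of 21 fatty acid synthesis and lipid storage genes, 16 were lower and 1 higher, with a median of -0.30 (-0.18 with centred arrays, 9 lower). FASN, the fatty acid synthase, read 10.29, 10.46 and 10.52 on repeat 1 arrays, against 11.11, 11.19 and 11.27 on later arrays, a difference of -0.75 ± 0.05 (adjusted p = 1.22e-09). Acetyl-CoA carboxylase (ACACA) fell by 0.68 ± 0.11, ATP citrate lyase (ACLY) by 0.67 ± 0.07, the phosphatidate phosphatase LPIN1 by 0.63 ± 0.05 and ACSL4 by 0.57 ± 0.05. SREBF1, a factor that drives these genes, fell by 0.27 ± 0.08, a call lost with centred arrays and with 1 value per repeat. The 1 gene of the list that rose was PLIN2, a coat protein of lipid droplets, by 0.47 ± 0.05. Cholesterol synthesis genes did not follow, with 7 higher and 7 lower of 19 (9 and 4 with centred arrays). SREBF2, a member of that cholesterol list, fell by 0.73 ± 0.04.

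TXNIP, an inhibitor of glucose uptake whose gene answers to the glucose sensors MondoA and ChREBP, read 8.73, 9.02 and 9.61 on repeat 1 arrays, against 9.49, 10.15 and 10.50 on later arrays. Its difference was -0.99 ± 0.10 (adjusted p = 6.29e-07), and the extremes overlapped. Of 7 targets of these sensors, listed after the values were seen, 5 were lower and 0 higher, including ARRDC4 (-0.53 ± 0.08) and the pyruvate kinase gene PKLR (-0.30 ± 0.08). In the insulin and IGF axis 11 of 20 genes were lower and 0 higher, with a median of -0.30. The receptors IGF2R, IGF1R and INSR fell by 0.72 ± 0.05, 0.70 ± 0.10 and 0.59 ± 0.07, the kinase AKT1 by 0.57 ± 0.06 and the regulatory subunit PIK3R3 by 0.52 ± 0.10. The second feature of IGF1R differed by -0.39. With centred arrays 10 genes of this list were lower and 1 higher.

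Adhesion and contact genes were lower too. Of 33 cytoskeleton and adhesion genes, 23 were lower and 3 higher, with a median of -0.27 (14 lower with centred arrays). ITGAV, an integrin α chain, read 8.53, 8.78 and 9.02 on repeat 1 arrays, against 9.14, 9.44 and 9.99 on later arrays, a difference of -0.70 ± 0.08 (adjusted p = 1.61e-06). Integrin ITGA2, vinculin (VCL), non-muscle myosin MYH9 and E-cadherin (CDH1) fell by 0.70 ± 0.08, 0.67 ± 0.06, 0.66 ± 0.05 and 0.59 ± 0.10. Of 20 YAP/TEAD target and contact genes, 13 were lower and 0 higher, with a median of -0.30. They included TEAD1 (-0.50 ± 0.05), the kinase LATS2 (-0.49 ± 0.05), AMOTL2 (-0.43 ± 0.06) and the secreted CCN2 (-0.39 ± 0.09). Of 28 extracellular matrix genes, 15 were lower and 0 higher, with a median of -0.19, against 8 lower, 2 higher and a median of -0.06 with centred arrays. Those lower included LAMB1 (-0.59 ± 0.08), AGRN (-0.52 ± 0.06), LAMA5 (-0.51 ± 0.07) and fibronectin FN1 (-0.44 ± 0.04).

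Of 19 Wnt target genes, 10 were lower and 0 higher, led by RNF43 (-0.72 ± 0.09) and LGR5 (-0.69 ± 0.11), 2 membrane regulators of Wnt signalling. Of 16 liver-enriched transcription factors, 8 were lower and 0 higher, including NR5A2 (-0.46 ± 0.06), ONECUT2 (-0.33 ± 0.05) and GATA4 (-0.33 ± 0.06). The medians of these lists, -0.16 and -0.15, lay near the -0.107 of all features and came to -0.03 each with centred arrays. EPCAM, an epithelial adhesion protein, rose by 0.83 ± 0.06, and by 0.24 at its second feature.

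**Figure D3:**
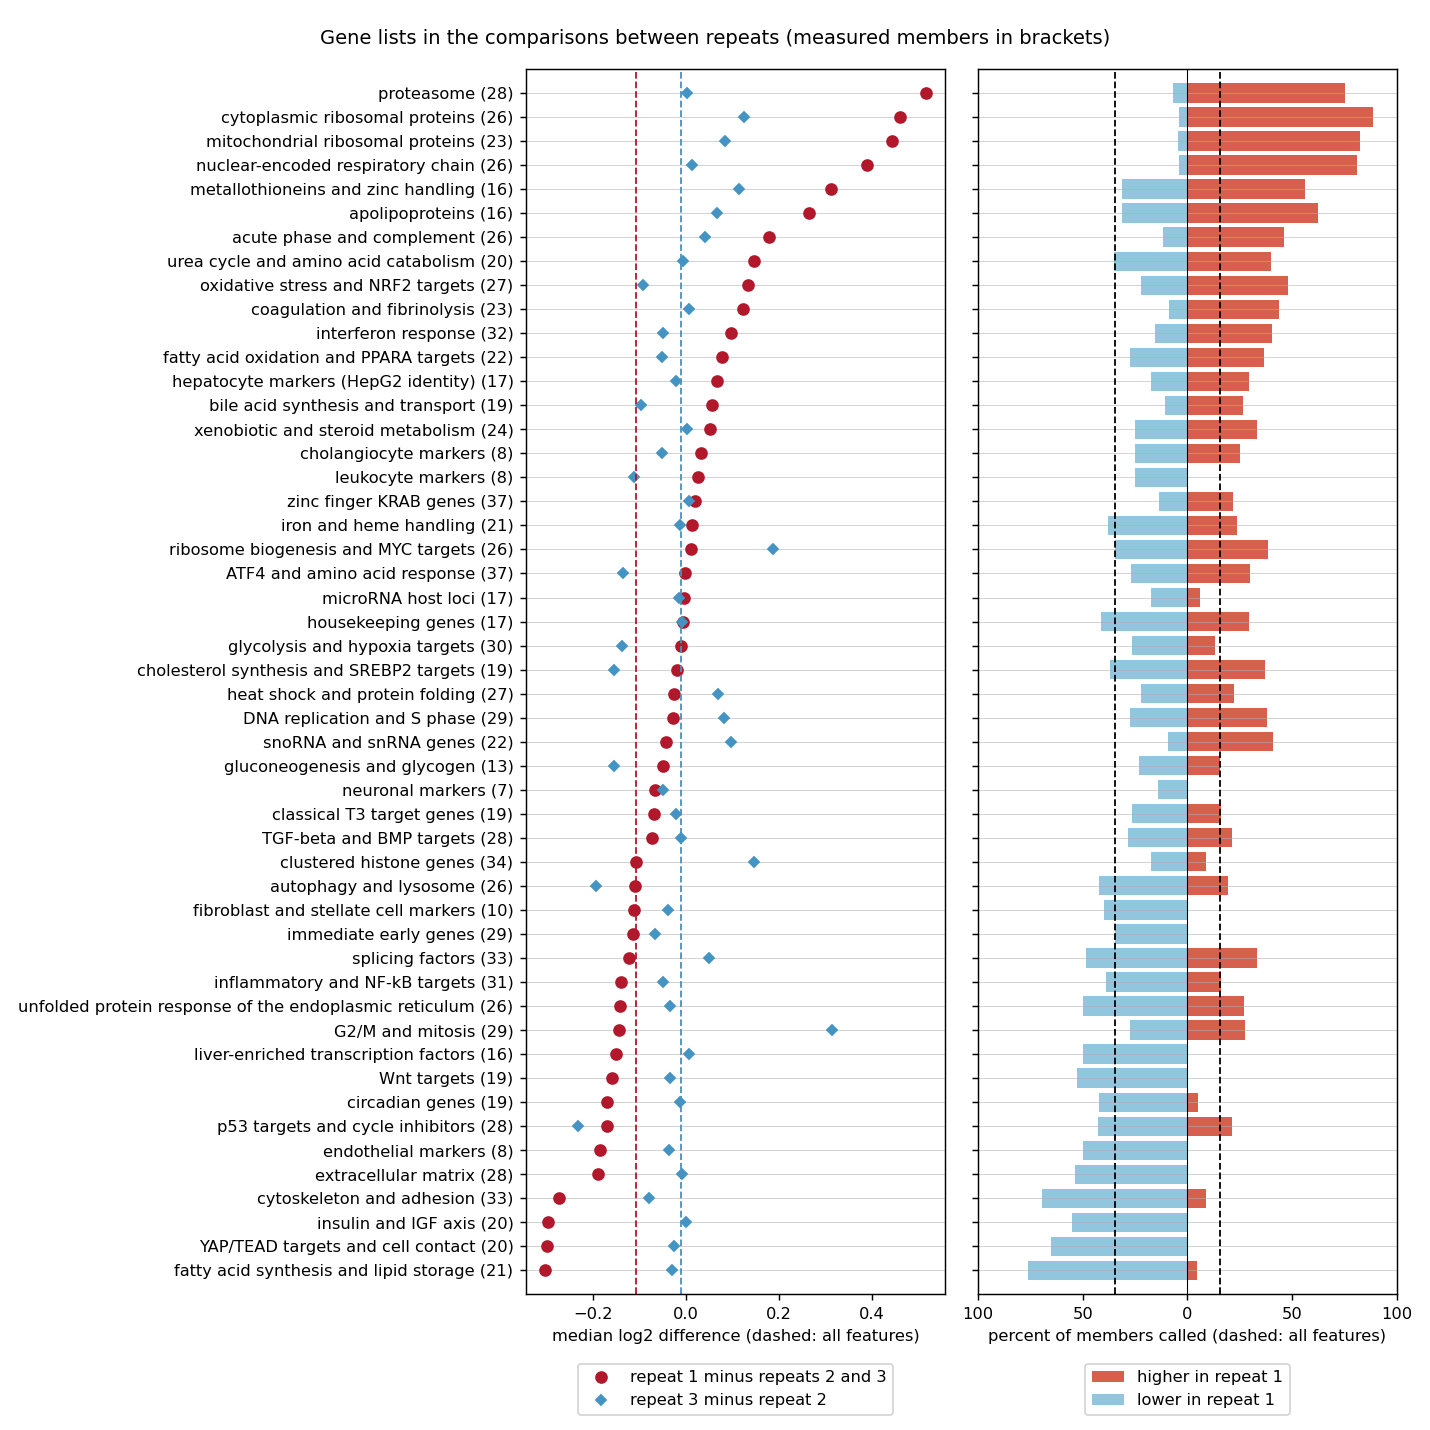
Left, median log2 difference of each gene list for repeat 1 minus repeats 2 and 3 (red circles) and repeat 3 minus repeat 2 (blue diamonds), with dashed lines at the medians of all features. Right, percent of the measured members called higher (to the right) and lower (to the left) in repeat 1, with dashed lines at the 15.7% and 34.4% of all features. Proteasome, ribosomal and respiratory chain lists lie at the top, and lipid synthesis, YAP/TEAD and insulin lists at the bottom.

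Calls went with gene length. Genes were put in 10 equal bins by genomic span, which was known for 99.85% of 18404 genes. In the bin with the longest spans 6.31% were higher and 43.5% lower in repeat 1, while in the shortest 16.2% were higher and 23.8% lower. The share of genes at least 1 log2 unit higher was 0.598% in the longest bin and 2.72% in the shortest. For repeat 3 minus repeat 2 6.64% were higher in the longest bin and 4.03% in the shortest. Spearman's rho between span and difference was -0.171 for repeat 1 minus the later repeats and 0.0985 for repeat 3 minus repeat 2, across genes, which are not independent replicates. Span includes introns, and the length of each message, RNA integrity and labelling yield were not used here, so their part in the result was not tested.

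**Figure D4:**
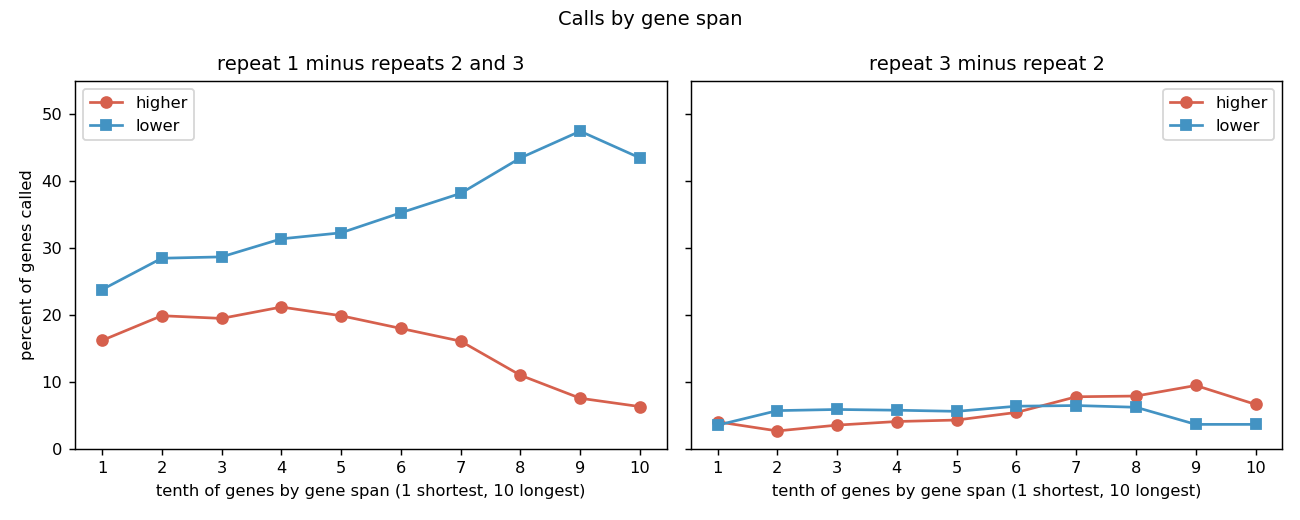
Percent of genes called higher (red circles) and lower (blue squares) by bin of genomic gene span (10 equal bins), for repeat 1 minus repeats 2 and 3 on the left and repeat 3 minus repeat 2 on the right. On the left, lower calls rise with span to 47.5% in bin 9 while higher calls fall to 6.31% in the last.

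Repeats 2 and 3 differed at fewer features. Here 1 independent repeat stands against 1, so p-values of repeat 3 minus repeat 2 measure the spread between arrays only. They hold no measure of how far repeats vary. Of the 2223 features called, 1169 were higher (5.69%) and 1054 lower (5.13%) in repeat 3. H2BC14, a histone H2B gene, read 11.26, 11.43 and 11.79 in repeat 3, against 10.16, 10.54 and 10.94 in repeat 2, a difference of 0.95 ± 0.06 (adjusted p = 1.18e-06). H4C4, another histone gene, differed by 0.87 ± 0.10, the lipid kinase DGKK by 0.84 ± 0.13, the mismatch repair gene MSH6 by 0.67 ± 0.11 and the mitotic motor KIF14 by 0.64 ± 0.10. PGC (pepsinogen C), KNG1 (kininogen) and SNORA6 were also among the 8 highest.

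Proliferation genes were higher in repeat 3. Of 29 G2/M and mitosis genes, 23 were higher and 0 lower, with a median of 0.31 against -0.01 over all features. KIF20A, a motor of cell division, rose by 0.62 ± 0.08, CENPF by 0.58 ± 0.10, the checkpoint kinase BUB1 by 0.50 ± 0.06, TOP2A by 0.48 ± 0.09 and MKI67 by 0.43 ± 0.07. Of 26 ribosome biogenesis genes, 14 were higher and 0 lower, including UTP20 (0.49 ± 0.10) and MYBBP1A (0.41 ± 0.05), and of 29 replication genes 10 were higher and 0 lower, including MCM2 (0.35 ± 0.06). Of 34 clustered histone genes, 10 were higher and 1 lower, the highest being H2BC3 (1.09 ± 0.20). The list members named here were chosen after their values were seen. Medians of the 5 G2/M genes in repeat 1 lay nearer to repeat 2: that of TOP2A was 9.70 in repeat 1, 10.41 in repeat 3 and 9.80 in repeat 2.

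Inhibitory and stress genes were lower in repeat 3. Of 28 p53 target and cycle inhibitor genes, 16 were lower and 0 higher, with a median of -0.23. CDKN1A, the cycle inhibitor p21, read 7.53, 7.69 and 7.85 in repeat 3, against 7.99, 8.63 and 8.87 in repeat 2, a difference of -0.86 ± 0.12 (adjusted p = 0.00104). TP53INP1 fell by 0.57 ± 0.08, the secreted GDF15 by 0.51 ± 0.06 and SESN2 by 0.48 ± 0.07. Of 37 ATF4 genes 16 were lower and 0 higher (TRIB3 -0.53 ± 0.10, ASNS -0.31 ± 0.07), and of 26 autophagy and lysosome genes 10 were lower and 0 higher (WIPI1 -0.53 ± 0.06, SQSTM1 -0.33 ± 0.07). Largest among single genes were RNU5D-1, a spliceosomal RNA (-1.04 ± 0.15), CD109 (-1.01 ± 0.12), the 5′-nucleotidase NT5E (-0.99 ± 0.14), ceruloplasmin CP (-0.93 ± 0.12) and SERPINE2 (-0.93 ± 0.10). LCN15, S100A11 and the iron exporter SLC40A1 fell by 0.91, 0.90 and 0.88. With vehicle arrays alone or T3 arrays alone, 3 against 3, 2 features were called in each. Without any one of the 8 arrays of repeats 2 and 3 from the TRα1 and TRβ1 pools, 1179 to 1481 were.

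Against the later repeats, 8 of the 29 G2/M genes were higher and 8 lower in repeat 1. Each share was 27.6%, against 15.7% higher and 34.4% lower over all features. With centred arrays 9 were higher and 3 lower, and with 1 value per repeat 3 and 0. CDK1, the mitotic kinase, and PTTG1, the securin, rose by 1.23 ± 0.08 and 1.28 ± 0.12, while TOP2A and CENPF fell by 0.49 ± 0.13 and 0.49 ± 0.15 over arrays (adjusted p = 0.125 and 0.167 with 1 value per repeat).

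No difference in the response to T3 between repeat 1 and the later repeats passed the test. The difference of the T3 response, repeat 1 minus later repeats, was called by limma at 0 of 20546 features (0%), with 1319 at an unadjusted p under 0.05 and a smallest adjusted p of 0.708. Averaged over the 3 pools, HEG1, the most strongly raised gene, had a T3 response of 1.42 in repeat 1, 1.78 in repeat 2 and 1.72 in repeat 3, and its difference was -0.33 ± 0.13 (adjusted p = 0.759). COQ10A, a coenzyme Q binding protein, responded by 1.68, 1.47 and 1.76 in repeats 1, 2 and 3, and CYP24A1, the vitamin D hydroxylase, by 1.43, 1.35 and 1.31. TP53INP2 and the sodium channel subunit SCNN1A responded by 1.32 and 1.40 in repeat 1. Of the genes lowered by T3, CEMIP gave -0.69, -0.58 and -0.63, and the glucose transporter SLC2A1 -0.44, -0.53 and -0.59. The median SE of this difference over all features was 0.142, so small differences in response could not be seen. The genes named were chosen by their T3 response over all repeats, so their likeness between repeats is not a test.

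**Figure D5:**
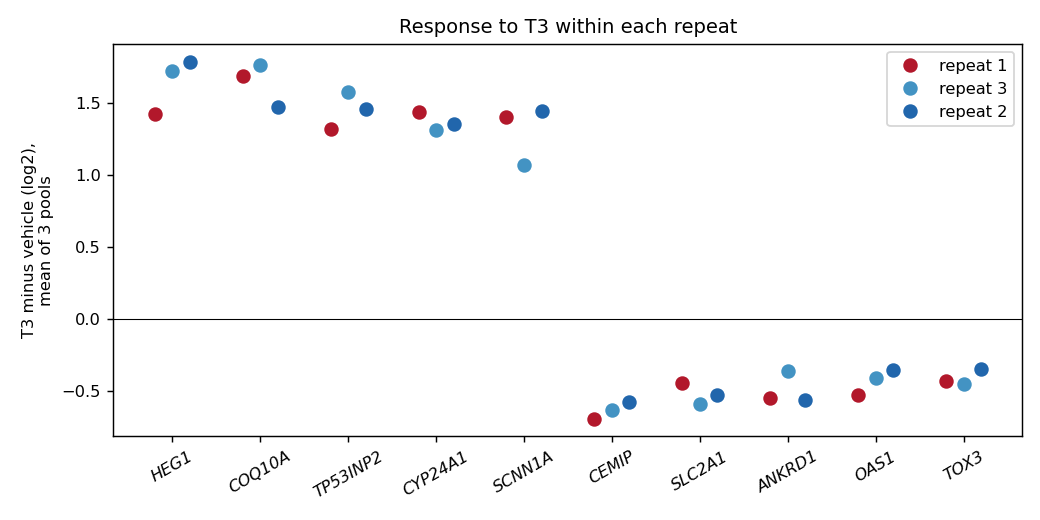
T3 minus vehicle on the log2 scale, mean of the 3 pools, within repeat 1 (red), repeat 3 (light blue) and repeat 2 (dark blue) for 5 genes raised and 5 lowered by T3. The 3 points of each gene lie close together, with HEG1 between 1.42 and 1.78. The genes were chosen by their T3 response over these same arrays, which favours genes that respond alike in every repeat.

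Taking the repeat into account changed how many genes passed the T3 test. With no replicate block, 87 features (0.423%) were called for T3 minus vehicle averaged over the 3 pools. With the replicate block 347 (1.69%) were, 279 higher (1.36%) and 68 lower (0.331%). HEG1 had a difference of 1.64 ± 0.07 with the block (adjusted p = 3.7e-09), and ANKRD1, a cardiac-type ankyrin repeat protein and YAP target, had -0.49 ± 0.08 (adjusted p = 0.00206), against an adjusted p of 0.0349 without it. The call of ANKRD1 was lost in 18 of 30 alternative settings. With the replicate block and without replicate 1, 166 were called. Without the block, leaving out repeat 2 left 8 calls and leaving out repeat 3 left 11.

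No difference in the shift of repeat 1 between pools passed the test. The difference between the TRα1 pool and the empty plasmid pool was called by limma at 0 features (0%; 872 at an unadjusted p under 0.05), and that between the TRβ1 pool and the empty plasmid pool at 0 (0%; 1258 at an unadjusted p under 0.05). The median SE was 0.174 in both. For NDUFB6 the shift was 3.36, 3.50 and 3.39 in the TRα1, TRβ1 and empty plasmid pools, and for FASN -0.86, -0.74 and -0.66.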

How the data were processed

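RNA of 18 HepG2 cultures was amplified, labelled by a whole-transcript sense protocol and hybridised to Affymetrix Gene ST arrays. The deposited values are log2 expression values per feature (0.894 to 13.7); RMA and R 2.7.1 are named per the submitters' processing notes, and the genome build is not given in the sources used here. Gene symbols came from the platform annotation: 19158 of 32321 features have 1 symbol, 1388 several (named for none) and 11775 none. For a gene with several features the brightest was used.

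Groups and repeats were read from the titles. limma 3.58.1 in R 4.3.3 (lmFit, eBayes) was fitted to all 18 arrays with 6 groups and an indicator of repeat 1, or repeat as 3 levels, without a filter on low values, and p-values were adjusted by Benjamini-Hochberg over the 20546 features with a symbol. The fit was tested on simulated data whose noise was independent between arrays. That test does not cover spread shared by the arrays of a repeat. The number of arrays and the sharing of a repeat by its 6 arrays both limit the precision. Arrays were taken as paired by replicate number. Deviations from group means correlated at 0.183 to 0.712 (median 0.498) over all 45 pairs of same-numbered arrays of different groups. Over 90 pairs with different numbers they correlated at -0.567 to 0.330 (median -0.382). The ranges overlap, and subtracting means of 3 arrays by itself lowers the correlation between different numbers.

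Named genes are the 15 highest and 15 lowest with 1 symbol and no overlap of arrays, 8 each way for repeat 3 minus repeat 2, 5 each way for T3, and up to 5 of each list, plus THRA, THRB, ALB and AFP; a few others were chosen after their values were seen. The members and gene lists were chosen with earlier results of these data known. Of 1275 list entries, 1140 matched a measured gene. Alternatives covered normalization, filters, weights, blocks, pools, treatments and leaving out each array or repeat. Promoters are RefSeq sequences.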

Additional observations from a re-analysis of the deposited data

Results flagged for a closer look

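Differences between repeat 1 and the later repeats were compared over the 6 groups for 160 genes, and 8 had 1 group far from the other 5 (Dixon's test). Chance gives about 1 such flag in 20 genes, so the 8 flags among 160 genes are no more than chance gives. In the TRα1 pool under vehicle, 3 genes lay above the others: NDUFB3 at 2.22 (others 1.53 to 1.77), SNRPF at 2.52 (2.02 to 2.18) and HNRNPA1 at 2.24 (1.80 to 1.95). ID3 stood at 1.64 in the TRα1 pool under T3 (1.14 to 1.30). In the TRβ1 pool under vehicle, RPL27 stood at 2.58 (2.40 to 2.45) and KDM4A at -0.57 (-0.93 to -0.80). In the empty plasmid pool under T3, IFT25 stood at 2.13 (2.37 to 2.46) and SNRPG at 1.75 (2.27 to 2.48). Each kept the sign of the other groups, and each group holds 1 array of repeat 1.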

How the results depend on the processing

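Calls of repeat 1 minus repeats 2 and 3 stayed within 1.5 times of 10295 under all-feature testing, a low-value filter, centring, quantile normalization, array weights, a trended prior, a random block and a 3-level repeat. They moved to 3084 with 1 value per repeat, 5679 with T3 arrays only, 2808 in the TRα1 pool, 4782 in the TRβ1 pool and 4757 in the empty plasmid pool, against 7906 with vehicle arrays only; the cause was not tested. Leaving out single arrays gave 8911 to 10489. For repeat 3 minus repeat 2, array weights gave 3954, vehicle arrays 2, T3 arrays 2, and leaving out single arrays 1179 to 2757. For the T3 contrast, array weights gave 142, a random block 408 and the replicate block 347; leaving out repeats 1, 2 or 3 gave 89, 8 and 11, and single arrays 69 to 92. The fit with the replicate block and without replicate 1, chosen after seeing the data, gave 166. The difference in T3 response gave 0 to 1 calls when single arrays were left out, and the pool differences 0 and 0 to 2. In the empty plasmid pool alone PLG (-0.0893), MT1X (-0.0591) and MT1H (-0.0387) reversed; the cause was not tested. With 1 value per repeat 21 named genes lost their call, and with centred arrays 10 (OAS1 in the T3 contrast and NCL among them). The replicate block changed no call of the 10 named T3 genes. Probes with low signal limit what can be seen: 6.42% of the genes in the lowest of 10 bins by mean level were called lower.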

Other observations

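Features without a gene symbol showed the difference too. Of 11775, limma called 2885 in repeat 1 minus the later repeats, 917 higher and 1968 lower, with a median difference of -0.07, and 615 in repeat 3 minus repeat 2, 468 higher and 147 lower. Among zinc finger KRAB genes, a family of transcriptional repressors, 8 of 37 were higher and 5 lower in repeat 1 (15 and 0 with centred arrays). Of 19 circadian genes 1 was higher and 8 lower, against 34.4% lower over all features, and with centred arrays 2 and 3.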
